A study of Homo sapiens with 6 samples.

Results

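The apolipoprotein genes described here are the 10 genes APOA1, APOA2, APOA4, APOA5, APOB, APOC1, APOC2, APOC3, APOC4 and APOE, out of 19821 protein-coding genes of the annotation used. They were chosen by name, with earlier results of these data in view, and each was taken as its RefSeq gene body on hg38 with 10 kb added on either side, called its window below. All 10 were found in the gene table. The study mapped acetylated NEIL1 (AcNEIL1) by ChIP-seq, the sequencing of DNA fragments precipitated from crosslinked chromatin with an antibody, in untreated, exponentially growing HCT116 cells, an established line from a human colorectal adenocarcinoma. There were 3 AcNEIL1 ChIP libraries and 3 libraries of input DNA taken before immunoprecipitation, and the peak lists of the 3 ChIP libraries, each called against the input of the same number, are used here. All libraries came from the same line, with no second genotype or treatment, so the values below compare loci and replicates and not conditions. The labels do not tie the replicates to separate cultures, and the spread between them may be technical.

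Apolipoproteins are the protein components of lipoproteins, the particles that carry lipids through plasma. APOB is the structural protein of chylomicrons and low-density lipoprotein, APOA1 and APOA2 are the main proteins of high-density lipoprotein, and the small C proteins and APOE exchange between particles and govern lipolysis and receptor uptake. Most of these genes are expressed mainly in liver and small intestine, and APOE also in macrophages and astrocytes. NEIL1 excises oxidised bases from DNA, and its acetylated form is the target of the antibody used.

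Of the members, 4 lie in a cluster on chromosome 11 (APOA5, APOA4, APOC3 and APOA1 in order of coordinate), 4 in a cluster on chromosome 19 (APOE, APOC1, APOC4 and APOC2), and APOA2 and APOB lie alone on chromosomes 1 and 2. Windows of neighbours overlap, so that the 10 windows merge into 6 stretches of 204.8 kb in all, and a peak between neighbours counts for each of them. The analysed lists held 39789, 60075 and 49609 peaks in replicates 1, 2 and 3, at 31921768, 28814429 and 35222701 ChIP tags. The merged windows held 16, 25 and 24 of these peaks. All peaks are those of the authors' caller, so the absence of a peak means only that nothing reached its cutoff at this depth.

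Peaks were found around 9 of the 10 genes, and the missing one was APOB. A peak in the window was found for 8 genes in replicate 1, where 42% of protein-coding genes had one, for 9 in replicate 2 (48.7% of protein-coding genes) and for 9 in replicate 3 (44.4%). In at least 2 replicates 9 genes had a window peak, against 44.5% of protein-coding genes, and in all 3 replicates 8 had one, against 34%. A peak within 1 kb of either gene end was found for 6 genes in replicate 1 (14% of protein-coding genes), 8 in replicate 2 (20.1%) and 9 in replicate 3 (15.6%). In at least 2 replicates 9 genes had such a gene-end peak, against 15.2% of protein-coding genes, and 5 genes had one in all 3, against 9.03%. With replicate 3 left out, gene-end peaks in both other lists were left at 5 genes. At peaks with a −log10 q of 5 or more, 5 genes had a gene-end peak in at least 2 replicates and 4 had a window peak in all 3. No share of all protein-coding genes is given for either setting, so these counts cannot be set against the shares above.

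These counts are a description, since the genes were chosen with the same lists in view and share peaks with their neighbours. Most of the genes are short, and 8 of them have a body of up to 5 kb. Among the 3096 protein-coding genes of that size, 42.7% had a window peak and 21.4% a gene-end peak in at least 2 replicates. All 4 genes of the chromosome 19 cluster had both a window peak and a gene-end peak in all 3 replicates. On that chromosome 51.6% of protein-coding genes had the former and 16.4% the latter, and in at least 2 replicates it was 62.6% and 25.7%. All 4 genes of the chromosome 11 cluster had both in at least 2 replicates, which held for 46.7% (window) and 18.4% (gene end) of protein-coding genes there. In all 3 replicates 3 of them had a window peak, against 36.4% on the chromosome, and APOC3 alone had a gene-end peak, against 11.5%.

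Averaged over the replicates, the share of a gene's window covered by peaks was highest for APOC2 and APOC4. APOC2 had 14.3, 18.7 and 19.2% of its window covered in the 3 replicates, on average 17.4% ± 2.68 (SD, n = 3). APOC4, whose window overlaps that of APOC2 for most of its length, had 17.3% ± 3.03, APOC1 14.8% ± 2.93 and APOE 12.0% ± 1.38 (SD, n = 3). On chromosome 11 APOC3 had 13.7% ± 10.9, APOA1 11.9% ± 8.39 and APOA4 8.49% ± 7.32, with SDs above those of the chromosome 19 genes, and APOA5 had 2.54% ± 2.46 (SD, n = 3). In replicate 2 APOC3 (25.2%) and APOA1 (20.6%) were covered more than APOC2 (18.7%) and APOC4 (17.0%). APOA2 had 5.16% ± 2.67 (SD, n = 3) and APOB 0% in each replicate. The mean over all protein-coding genes was 3.37% and the median 0.225%. Of protein-coding genes, 5.50% were covered at least as much as APOC2, 9.37% at least as much as APOE and 26.8% at least as much as APOA5. Ordered by their means, neighbours from APOC2 down to APOA5 differed by less than the larger SD of the pair.

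**Figure D1:**
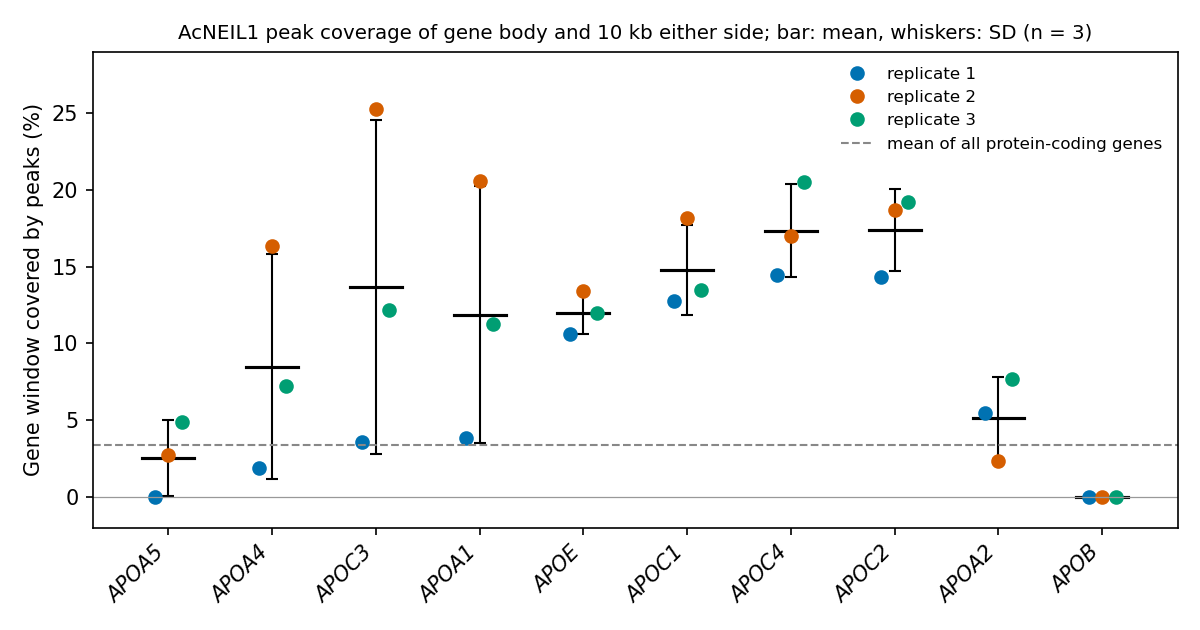
Percent of each gene's window (gene body with 10 kb either side) covered by AcNEIL1 peaks, one point per replicate, with the mean as a bar and the SD of 3 replicates as whiskers; the dashed line is the mean of all protein-coding genes, 3.37%. The 4 chromosome 19 genes lie between 10.6 and 20.5% in every replicate, the chromosome 11 genes are spread from 0 to 25.2%, and APOB is at 0 throughout.

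APOE encodes the ligand by which remnant lipoproteins bind receptors of the LDL receptor family. The gene lies on chromosome 19 at 44905796 to 44909393 (hg38, plus strand), and it carried the highest and widest peak near any member in replicates 1 and 2. This peak was 2135 bp wide with a summit pileup of 40 tags in replicate 1, 2150 bp with 48 tags in replicate 2 and 2207 bp with 27.67 tags in replicate 3. Pileup is the number of extended tags that cover the summit. It was the widest peak of the members in each replicate, at percentile 98.6, 95.2 and 98.5 of width and percentile 98.0, 98.3 and 91.4 of pileup among all peaks of the same replicate.

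The APOE peak lay over the downstream part of the gene. It ran from 44907898 to 44910032 in replicate 1, from 44907346 to 44909495 in replicate 2 and from 44907369 to 44909575 in replicate 3, so that each crossed the gene's far end. The stretch covered in all 3 replicates was 1598 bp long (44907898 to 44909495), and 1496 bp of it fell inside the gene. Of the 3598 bp of the gene body 41.6, 66.2 and 56.3% were covered. The summits lay 2622, 3059 and 2458 bp downstream of the gene start. At the start itself there was no peak within 1 kb in any replicate, and the nearest peak edge was 2102, 1058 and 1573 bp away. As background, the last exon of APOE holds a CpG island; exon positions were not analysed here.

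The authors' fold enrichment of this peak, its pileup over the local background, was 4.68, 6.90 and 3.58 in the 3 replicates, on average 5.05 ± 1.69 (SD, n = 3). In replicate 3 the fold lay just below the median of all peaks (3.61) although the pileup was high. The local background recovered from fold and pileup was 7.77, 6.10 and 7.00 tags there, above the median over all peaks of each replicate (4.94, 5.34 and 4.48). The part of this background in the fold of the peak was not tested. In replicate 2 the peak was flanked by a peak of lower fold on either side. The upstream one (44906854 to 44907186) had 14 tags and a fold of 2.66. The downstream one (44909595 to 44909896) had 23 tags and a fold of 2.56.

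The promoter of APOE is shown because it lay outside every peak, in contrast to that of APOC2. It is the 250 bases before the gene start from the RefSeq promoter table of GRCh38.p14 (plus strand, chr19:44905546-44905795), and it is in lower case because no base was covered in all 3 replicates.
APOE promoter: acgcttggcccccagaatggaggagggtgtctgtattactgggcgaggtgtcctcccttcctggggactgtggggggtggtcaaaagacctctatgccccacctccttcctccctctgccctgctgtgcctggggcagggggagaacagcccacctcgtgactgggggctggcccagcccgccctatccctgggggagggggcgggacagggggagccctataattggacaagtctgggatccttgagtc
Its GC content was 64.8%, with 5 CpG sites.

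APOC1, an inhibitor of cholesteryl ester transfer and of receptor binding, lies 4.93 kb downstream of APOE at 44914325 to 44919346 (plus strand). It had 1 gene-end peak in each replicate, always at the start. The peaks were 377, 376 and 622 bp wide, with summit pileups of 14, 19 and 19.08 tags and folds of 3.27, 3.50 and 3.84, a mean of 3.54 ± 0.287 (SD, n = 3). In replicates 2 and 3 they ended 212 and 27 bp before the gene, and in replicate 1 the peak crossed the start. The 3 peaks chain into a merged region of 876 bp (44913677 to 44914552), but no base was covered in all 3 replicates. The rest of APOC1 was bare: 4.54% of its body was covered in replicate 1 and 0% in the other replicates.

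APOC4 and APOC2 lie next to each other, 554 bp apart, and had the highest mean window coverage of the members. In replicate 2 the windows of APOC3 and APOA1 were covered more. APOC2 encodes the cofactor that activates lipoprotein lipase; APOC4 is a minor apolipoprotein of very-low-density lipoprotein. APOC4 lies at 44942237 to 44945496 and APOC2 at 44946051 to 44949565, both on the plus strand, and a read-through RNA gene (APOC4-APOC2) spans them. Of the APOC4 body 29.3, 51.5 and 61.7% were covered in replicates 1, 2 and 3, and of the APOC2 body 37.0, 17.8 and 36.8%.

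The pair held 3 merged regions with a peak in all 3 replicates. The region over the APOC4 start (44941423 to 44942648) had pileups of 22, 27 and 25.76 tags and fold 4.88 ± 0.249 (SD, n = 3). The region in the downstream part of APOC4, inside the gene (44943560 to 44945367), had 26, 30 and 29.58 tags and fold 5.23 ± 1.47, and its highest summits in the 3 replicates fell within 104 bp. The region over the APOC2 start (44945514 to 44946677) had 25, 32 and 22.9 tags and fold 4.98 ± 0.269 (SD, n = 3 for each). The far end of APOC4 lay between these last regions, 25, 18 and 60 bp from the nearest peak in replicates 1, 2 and 3. Replicate 3 gave the highest fold of any peak near a member apart from the APOE peak of replicate 2: 6.78, at 44944701 to 44945334 in the downstream part of APOC4, at percentile 99.8 of fold in its list. The interval covered in all 3 replicates was 481 bp there (44944701 to 44945181).

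Further into APOC2 the replicates differed. Replicates 1 and 3 had a peak at 44947315 to 44947867 with 17 and 17.17 tags and another at 44948457 to 44949021 with 21 and 23.85 tags, and replicate 2 had neither. Replicate 1 alone had a peak at 44946696 to 44946993, with 21 tags.

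The promoters of both genes are shown because the peaks at their starts cross them. They are again the 250 bases before the start, 5′ to 3′ on the plus strand of GRCh38.p14 (chr19:44941987-44942236 for APOC4 and chr19:44945801-44946050 for APOC2), and capitals mark bases covered by a peak in all 3 replicates.
APOC4 promoter: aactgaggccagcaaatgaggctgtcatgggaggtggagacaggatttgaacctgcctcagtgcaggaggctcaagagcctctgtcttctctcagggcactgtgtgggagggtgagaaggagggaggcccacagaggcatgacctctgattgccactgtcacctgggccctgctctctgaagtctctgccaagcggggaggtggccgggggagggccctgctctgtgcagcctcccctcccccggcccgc
APOC2 promoter: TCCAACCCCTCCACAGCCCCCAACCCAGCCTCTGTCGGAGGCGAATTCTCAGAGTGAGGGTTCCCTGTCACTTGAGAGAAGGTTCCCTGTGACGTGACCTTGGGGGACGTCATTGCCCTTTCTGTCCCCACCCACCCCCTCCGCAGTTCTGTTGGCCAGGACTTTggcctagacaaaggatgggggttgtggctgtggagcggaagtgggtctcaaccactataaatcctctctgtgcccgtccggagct
All 250 bases of the APOC4 promoter were covered in replicates 1 and 2 and none in replicate 3, whose peaks ended upstream of them and resumed 37 bp inside the gene. Of the APOC2 promoter 165, 250 and 250 bases were covered in replicates 1, 2 and 3, and 165 in all 3.

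Promoter entries were found for 7 members, and APOA1, APOC3 and APOB had none. Peaks covered no base of the promoters of APOE, APOA5, APOA4 and APOA2 in any replicate. The entry for APOC1 (44914422 to 44914671) lies inside the gene body used here, because the promoter table gives that gene a later start, and 131 bases of it were covered in replicate 1 and none in the others. Of the 250 bases before the APOC1 start used here (44914075 to 44914324), 149, 39 and 224 were covered in replicates 1, 2 and 3, and none in all 3. Composition and motifs of the 7 were taken from the promoter entries, for APOC1 the one at 44914422 to 44914671. Over the 250 bases of each entry, GC content ranged from 52.8% in APOA2 to 64.8% in APOE, with 0 to 8 CpG sites. The medians over 15813 promoters of protein-coding genes were 62% and 17 sites. Some short motifs were searched on both strands, with no overlap among them. TATAA, the core of a TATA box, was in the APOE and APOC2 promoters and in 16.1% of all promoters. AGGTCA, a nuclear receptor half-site, was in those of APOA5, APOC4 and APOC2 and in 10.4% of all. GGGCGG, an Sp1 box, was in those of APOE and APOC1 and in 55.8% of all. These matches describe the letters only.

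Between the genes of the chromosome 19 cluster, the stretches covered in all 3 replicates lay within 1 kb of a gene end. Besides the end of the APOE stretch, they were 320 bp upstream of APOC4 (44941572 to 44941891) and 410 bp between APOC4 and APOC2 (44945556 to 44945965). Farther from gene ends, no peak place recurred in all 3 replicates. The stretch of 22.9 kb from APOC1 to APOC4 held 3, 4 and 3 peaks away from gene ends, with a median pileup of 18, 21.5 and 14.31 tags. Of the merged regions made of these peaks, 1 had peaks in 2 replicates, at 44924280 to 44925341 with 23 tags in replicate 1 and 27 in replicate 2. Each of the others was seen in 1 replicate. The pseudogene APOC1P1 in this stretch carried a pair of peaks in replicate 1 only, with 18 and 17 tags. The 4.93 kb from APOE to APOC1 held no peak away from gene ends. The 554 bp from APOC4 to APOC2 lie wholly within 1 kb of gene ends, and 1 peak touched them in each replicate.

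Taken from the APOE start to the APOC2 end, the chromosome 19 cluster spans 43770 bp with 12, 13 and 12 peaks in the replicates, or 2.82 ± 0.132 per 10 kb (SD, n = 3). Gene ends took 8, 7 and 8 of them. Peaks covered 16.1, 19.4 and 18.6% of the span, against 2.01, 4.21 and 2.54% of chromosome 19. The chromosome was taken from its first to its last annotated gene, whatever the gene density. Over the 3 replicates 13329 bp were covered in any, and 24.0% of these were covered in all 3. Over all chromosomes that share was 11.6%.

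**Figure D2:**
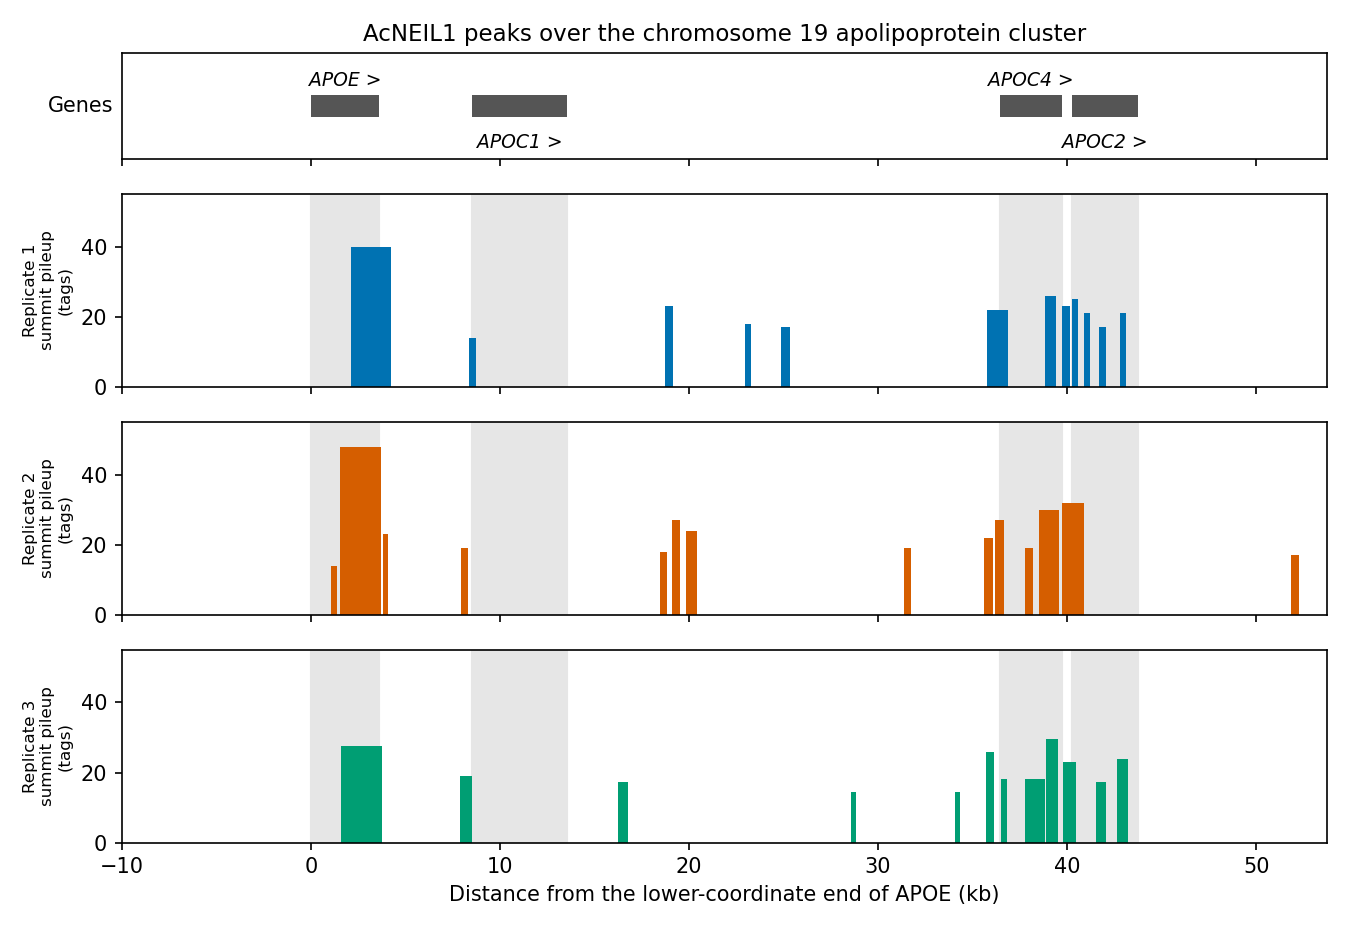
AcNEIL1 peaks over the chromosome 19 apolipoprotein cluster, with distance from the APOE start in kb on the x axis and the summit pileup in tags as the height of each peak, one row per replicate; grey bands and dark boxes are gene bodies and > marks the direction of transcription. The peak of about 2 kb over the downstream part of APOE and the peaks over APOC4 and the APOC2 start appear in all 3 rows, and the body of APOC1 is nearly bare.

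In the chromosome 11 cluster the libraries gave different numbers of peaks. It spans 48256 bp from APOA5 to APOA1, with 2 peaks in replicate 1, 8 in replicate 2 and 7 in replicate 3, or 1.17 ± 0.666 per 10 kb (SD, n = 3). Peaks covered 1.73, 10.4 and 6.23% of the span, against 1.05, 2.36 and 1.35% of chromosome 11, taken in the same way. Of the 7933 bp covered in any replicate, 88.1% were covered in 1 replicate, 943 bp in 2 and 0 in all 3. Over all chromosomes 64.7% of the covered bases were in 1 replicate and 11.6% in all 3. Replicate 1 covered 834 bp of the span, so the bases shared by all 3 could not exceed that number. Replicate 1 was low: it was the shortest list, with 39789 peaks against 60075 and 49609, and its part in the difference between clusters was not tested.

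**Figure D3:**
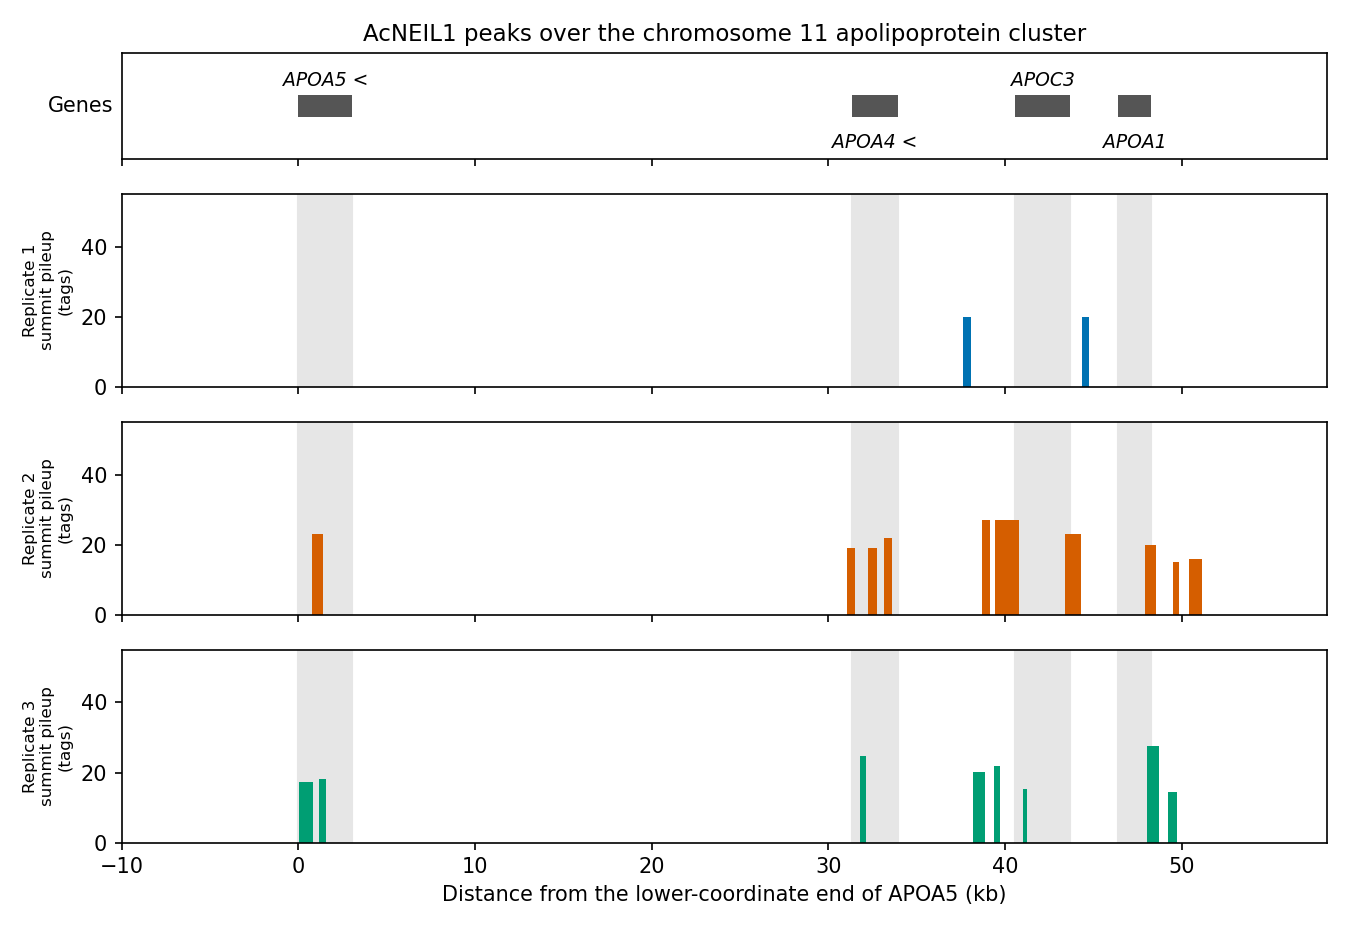
AcNEIL1 peaks over the chromosome 11 apolipoprotein cluster, drawn as for chromosome 19, with distance from the lower-coordinate end of APOA5 in kb; < marks genes on the minus strand, and APOC3 and APOA1 carry no mark because the promoter table held no entry for them. Replicate 1 shows 2 peaks, both outside the gene bodies, while replicates 2 and 3 have peaks at all 4 genes.

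APOA5, a modulator of plasma triglyceride clearance, lies at 116789367 to 116792420 on the minus strand. It had no window peak in replicate 1, where the nearest peak was 34595 bp away, 1 in replicate 2 and 2 in replicate 3. The replicate 2 peak was 628 bp wide with 23 tags, and those of replicate 3 were 770 and 362 bp wide with 17.17 and 18.13 tags. All of them lay in the downstream part of the gene, with summits 1794 to 2721 bp from its start, and none came within 1 kb of the start. The intergenic stretch of 28.3 kb from APOA5 to APOA4 held no peak away from gene ends in any replicate.

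APOA4, an intestinal apolipoprotein of chylomicrons, lies at 116820700 to 116823304 on the minus strand. Replicate 2 had 3 peaks on the gene, with 19, 19 and 22 tags, and replicate 3 had 1 with 24.81 tags. None of these overlapped a peak of another replicate. The replicate 3 peak had a fold of 2.87 and a local background of 8.00 tags, at percentile 94.6 of the background of its list. The nearest peak of replicate 1 lay 3711 bp from the gene body.

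APOC3, an inhibitor of lipoprotein lipase, lies at 116829907 to 116833072. It had a gene-end peak in all 3 replicates, though at no place shared by all 3. In replicate 1 the peak lay 630 bp beyond the higher-coordinate end (116833702 to 116834109, 20 tags). In replicate 2 a peak of 1354 bp with 27 tags crossed the lower-coordinate end (116828805 to 116830158) and another of 919 bp with 23 tags crossed the opposite end. In replicate 3 one peak lay 815 bp outside the gene, at 116828739 to 116829092 with 21.94 tags, and another inside it with 15.27 tags. The former overlapped the peak of 1354 bp in replicate 2. The strongest gene-end fold was 3.50, 4.39 and 4.47, a mean of 4.12 ± 0.536 (SD, n = 3). In the 6.6 kb between APOA4 and APOC3 there was 1 peak away from gene ends in each replicate. Those of replicates 2 and 3 overlapped (116827542 to 116828508, 27 and 20.04 tags) and that of replicate 1 did not touch them (116827015 to 116827440, 20 tags).

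APOA1, which activates the cholesterol-esterifying enzyme LCAT, lies at 116835751 to 116837622. Overlapping peaks of replicates 2 and 3 crossed its higher-coordinate end (116837299 to 116838082), with 20 and 27.67 tags and folds of 4.11 and 4.10. They also fell inside the antisense RNA gene APOA1-AS. ChIP-seq peaks carry no strand, so they cannot be assigned to either gene. A further pair of overlapping peaks lay at 116838615 to 116839238, with 15 and 14.31 tags. The nearest peak of replicate 1 lay 1642 bp from the gene body.

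APOA2 lies on chromosome 1 at 161222292 to 161223628 (minus strand), and its gene-end peaks were weak and did not recur. Replicate 1 had one of 316 bp with 16 tags, 186 bp beyond the far end, and replicate 3 one of 264 bp with 16.22 tags inside the gene, at a −log10 q of 1.68 close to the cutoff. The nearest peak of replicate 2 lay 3877 bp from the gene. The other window peaks of APOA2 (2, 1 and 3 in replicates 1, 2 and 3) all lay in FCER1G, the gene of an Fc receptor subunit, which lies within the same window. One merged region there (161217207 to 161218415) had a peak in all 3 replicates, with 15, 19 and 14.31 tags, but no base covered in all 3.

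APOB lies on chromosome 2 at 21001429 to 21044073, and with 42645 bp it is the longest member. Neither the gene nor its window held a peak in any replicate. The nearest peak of replicate 2 ended 345 bp outside the window (20990736 to 20991084, 18 tags, fold 2.68), and the nearest ones in replicates 1 and 3 lay 319.7 and 320.0 kb outside it. The protein-coding neighbours LDAH and TDRD15 had no window peak either.

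In the gene interior, over 1 kb from both ends, a peak was found in at least 2 replicates for 4 of the 8 members long enough to have one: APOE, APOC4, APOC2 and APOA5. Peaks reaching into the interior counted even where they came within 1 kb of an end, as the APOE peak did in each replicate. Among the 18609 protein-coding genes with an interior, 27.4% had an interior peak in at least 2 replicates. Among those up to 5 kb it was 18.2%, against 4 of 6 members of that size. APOE had one in all 3 replicates, which held for 20.1% of the protein-coding genes. Without replicate 3 only APOE was left, and without replicate 2, 2 members, with no share of all protein-coding genes given for either.

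Pileups of the window peaks were close to those of all peaks. Widths were close in replicates 1 and 2 and larger in replicate 3. The median width was 389.5, 472 and 504 bp in replicates 1, 2 and 3, against 401, 478 and 384 bp over all peaks. Of the window peaks, 7 of 16, 11 of 25 and 16 of 24 were wider than the median of their list. The range was 274 to 2135 bp in replicate 1, 302 to 2150 bp in replicate 2 and 249 to 2207 bp in replicate 3. The median pileup was 20.5, 22 and 18.13 tags against 20, 21 and 19.08. The median fold was 3.58, 4.10 and 3.82 against 3.42, 3.40 and 3.61, and 12 of 16, 18 of 25 and 14 of 24 window peaks lay above the median fold of their list. Gene-end peaks made up 10, 14 and 15 of the window peaks, and peaks between cluster genes 3, 5 and 4.

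**Figure D4:**
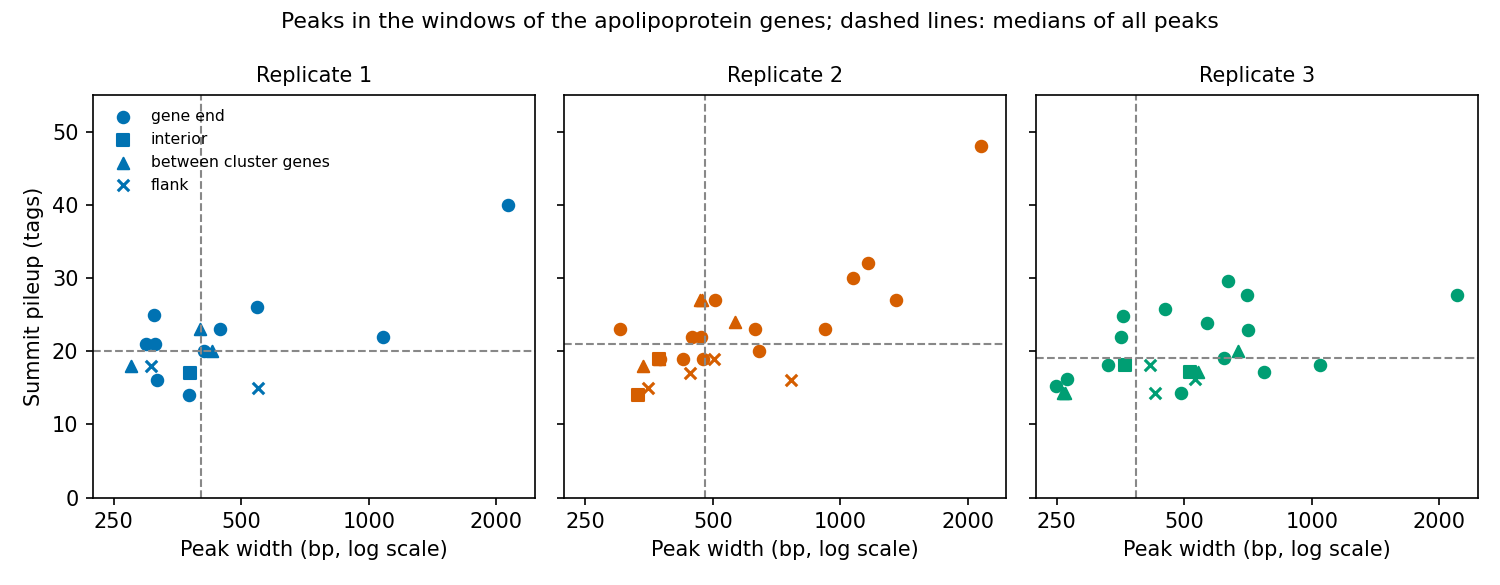
Width (bp, log scale) against summit pileup (tags) of every peak in the windows of the 10 genes, one panel per replicate, with symbols for position; dashed lines are the medians of all peaks of the replicate. Most points sit near the crossing of the medians, and the widest point of each panel, at 2135, 2150 and 2207 bp, is the APOE peak.

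Merging the 3 lists gave 36 regions in the members' windows, of which 6 (16.7%) had peaks in all 3 replicates and 21 (58.3%) in 1. Over all chromosomes the shares were 13.2% and 68.3% of 85534 regions. Of these 6 regions, 5 lay in the chromosome 19 cluster, at APOE, at the APOC1 start and at APOC4 and APOC2, and 1 lay in FCER1G beside APOA2. Of the 12 regions of the chromosome 11 cluster, 0 had peaks in all 3 and 8 (66.7%) had them in 1.

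The protein-coding neighbours of both clusters were without peaks at their ends. ZPR1 and SIK3 beside the chromosome 11 cluster and TOMM40 and CLPTM1 beside the chromosome 19 cluster had no gene-end peak in any replicate. The same held for 14776 of the 19821 protein-coding genes. In its window, ZPR1 had a peak in 2 replicates, and SIK3, TOMM40 and CLPTM1 had one in 3. These windows reach into the clusters and take in peaks near the members. CLPTM1 had an interior peak in 1 replicate. By the percent of window covered in the 3 replicates, the genes most like APOC2 among all protein-coding genes were RHOD (13.6, 18.0 and 18.7%), MUS81 (15.6, 18.7 and 19.9%) and FFAR3 (14.6, 18.8 and 20.7%).

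Other genes of lipoprotein metabolism were counted in the same way, from lists chosen with earlier results known. In a list of 16 other apolipoprotein and similarly named genes, 2 had a gene-end peak in at least 2 replicates, and 1 of these was the receptor gene APOBR. Of 16 genes of lipoprotein receptors and uptake 4 had one, and of 11 genes of plasma lipases and lipid transfer 1, against 15.2% of all protein-coding genes. Of 11 genes of lipoprotein assembly and sterol transport 5 had one, and of 18 genes of transcription factors known to act on apolipoprotein genes 4. Of 20 genes of other liver plasma proteins 6 had one. The median percent of window covered ranged from 0.170% for lipases and lipid transfer to 7.67% for assembly and sterol transport, against 11.9% for the 10 apolipoprotein genes and 0.225% for all protein-coding genes.

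Named by strength among those with a gene-end peak in all 3 replicates, GPIHBP1, which anchors lipoprotein lipase on capillaries, had folds of 4.72, 6.69 and 5.86. CETP, the cholesteryl ester transfer protein gene, had 3.21, 4.23 and 6.30. SOAT2, which esterifies cholesterol in liver and intestine, had 4.10, 5.09 and 5.45, and NPC1L1, the intestinal cholesterol transporter gene, had 4.18, 3.94 and 4.71. Set against GPIHBP1, CETP, SOAT2 and NPC1L1 alone, the APOE peak's fold lay within their range in replicate 1 (4.68). It lay above that range in replicate 2 (6.90) and below it in replicate 3 (3.58). Of the genes named next, SERPINA1 (3.14) and ORM2 (3.36) lay below APOE in replicate 3 and the others above. SERPINA1, the α1-antitrypsin gene, had 4.69, 4.89 and 3.14, and F2, the prothrombin gene, had 3.58, 4.22 and 3.66. ORM1 and ORM2, genes of the acute-phase protein orosomucoid, had mean folds of 3.83 ± 0.343 and 3.65 ± 0.706 (SD, n = 3); they are close copies, between which reads may be split. APOBR, a receptor gene for remnant lipoproteins, had 7.14 ± 1.61 and AMN, a partner of the intestinal receptor cubilin, 4.47 ± 1.62 (SD, n = 3). No transcription factor gene of its list had a gene-end peak in all 3 replicates, against 9.03% of all protein-coding genes. Of the 18 genes in that list, 15 had a window peak in all 3 replicates, against 34% of all protein-coding genes. It was 8 of 11 for assembly and sterol transport and 7 of 16 for receptors and uptake. For other liver plasma proteins it was 8 of 20. For other apolipoproteins it was 5 of 16, and for lipases and lipid transfer 4 of 11. Gene length was not taken into account in these counts.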

How the data were processed

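Per the file headers, the authors ran MACS 2.1.1.20160309 on each AcNEIL1 ChIP library against the input of the same number, with a q-value cutoff of 0.05 and at most 2 tags per position. The deposited signal is the summit pileup in tags, scaled towards the smaller library of a pair. The deposited −log10 values are of the caller's p and q. The deposited fold was taken here as a ratio of pileup to local background with 1 added to each. The local background was recovered from pileup and fold on that basis. The aligner's settings were not given in the sources used here. Input libraries held 32877739, 37772127 and 33606858 tags. Coordinates are 1-based hg38.

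Peaks on chromosomes 1 to 22 and X were set against a RefSeq gene table of GRCh38.p14 (19821 protein-coding genes) with Python 3.11.15 and pandas 2.3.3. A peak counted where it overlapped by at least 1 bp. A gene start was taken as the outermost end given by the strand of the promoter table. Overlap counts were checked on simulated data. The members and lists were chosen with earlier results of these data known, so no test was run and values are descriptions over 3 replicates. All members are named whatever their values; each other list could name up to 4 genes with gene-end peaks in 3 of 3 replicates, taken by their mean rank of fold. The alternatives tried were a stricter q, lists of equal length, windows of 5 and 20 kb, gene ends of 2500 bp, summits in place of overlaps, and each replicate left out.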

Additional observations from a re-analysis of the deposited data

How the results depend on the processing

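Across 9 alternatives, 45 of 54 recomputed values stayed within 1.5 times a count or 1 SD of a mean. Some of this agreement was fixed in advance. Leaving out 1 of the 3 replicates cannot shift a mean by as much as 1 SD of the 3. Nor can it lower the number of members with a window peak in every replicate. That number was 8 and can reach 10 at most, which is within 1.5 times. With only peaks at −log10 q of 5 or more, 4 members had a window peak in all 3 replicates, 5 a gene-end peak and 2 an interior peak in at least 2, the merged windows were 3.49% covered (6.22% with all peaks) and they held 8.67 peaks on average (21.7 with all peaks). Fewer peaks were admitted there. No share of all protein-coding genes is given for any of the alternatives. With gene ends of 2500 bp, 0 members had an interior peak in at least 2 replicates, since few of these short genes then have an interior. Leaving out each replicate gave 5 to 8 members with a gene-end peak in both others and 1 to 3 with an interior peak. Members with a window peak in at least 2 replicates ranged from 7 to 9. No paired analysis was possible because the input libraries entered only through the authors' peak calls. Depth limits all absences to peaks that this caller could detect.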
